A study of Homo sapiens with 12 samples.

Results

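The data compare ALDH1+ with ALDH1- cells of the breast cancer line MDA-MB-468, both sorted after 10 days in 0.5 µM EPZ5676. The comparison was chosen by label: the 3 ALDH1+ and the 3 ALDH1- libraries of EPZ5676-treated cells, 6 of the 12 libraries in the series, with libraries of equal replicate number treated as a pair. The other 6 libraries are ALDH1+ and ALDH1- cells that had spent the 10 days in DMSO, the solvent, and they serve here as the solvent background. All 4 groups hold 3 replicates, which the labels call biological, from this 1 cell line with no genetic change named. What separates the replicates (cultures, days or sorts) is not stated. The p-values measure the spread left among these 12 libraries after differences between replicate numbers are fitted. Whether that is a spread between independent cultures is not known.

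MDA-MB-468 is a triple-negative line: it is not driven by the estrogen receptor, the progesterone receptor or amplified HER2, and it carries many copies of EGFR. ALDH1 enzymes oxidise retinal and other aldehydes, and high aldehyde dehydrogenase activity is used as a sort marker for breast cancer cells with stem or progenitor properties. EPZ5676 (pinometostat) blocks the catalytic site of DOT1L, the methyltransferase that acts on lysine 79 of histone H3 in the bodies of transcribed genes. Squamous differentiation, the programme of skin and of the lining of the mouth, is the one in which keratinocytes assemble keratin filaments and then a cornified envelope, a shell of SPRR and other proteins that transglutaminases cross-link.

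The 6 EPZ5676 libraries held 24348594 to 80195050 counts, and the ALDH1+ library was the deeper one of each pair, by 1.16-, 2.87- and 1.18-fold. Levels are given as CPM (counts in a TMM-scaled library of 1000000), and the 3 values of a group are in the order of replicates 1, 2 and 3. A value after ± is the standard error (SE) of a log2 difference from the model. All 12 epithelial markers were measured, and edgeR called 0 of them between the populations (1 had an unadjusted p below 0.05). EPCAM lay between 520 and 618 CPM and EGFR between 7740 and 11460 CPM over the 6 libraries. PGR, the progesterone receptor, had 1 count in all 6 libraries together, ESR1 lay between 6.83 and 9.65 CPM and ERBB2 between 34.0 and 40.6 CPM. Of 26 markers of blood, endothelial, stromal and other cells, 7 were at 0 in all 6 libraries, among them DCN and LUM. Their summed level was 41.4 to 43.1 CPM in ALDH1+ and 37.3 to 48.6 CPM in ALDH1- libraries, most of it COL1A1 and CSF1R, and edgeR called 0 of the 8 that could be tested. At an unadjusted p below 0.05, 1 of the 8 (COL1A1) was higher and 3 (PTPRC, CSF1R and ITGAM) were lower, beside 12.7% of all genes tested in either direction. The median log2 difference of the 8 was -0.238, and their mean was -0.308, -0.354 and 0.076 in pairs 1, 2 and 3. The part of these markers in the results was not tested.

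A gene was called when its adjusted p was below 0.05 in the edgeR quasi-likelihood test with the replicate number as a block. Of the 16327 genes that passed the filter on low counts, 75 were called (0.459%), 31 of them higher in ALDH1+ cells (0.19%) and 44 lower (0.269%). At least 2-fold differences were found in 7 of the higher and 11 of the lower genes. The higher genes held cornified envelope proteins and squamous keratins, with SPRR2A and SPRR3 the widest rises, and the retinal dehydrogenase ALDH1A3. The lower genes were led by the chaperones HSPA6 and CRYAB and held early growth response factors, NF-kB targets and genes of mesenchymal cells and TGF-beta signalling. By annotation, 71 of the 75 were protein-coding.

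**Figure D1:**
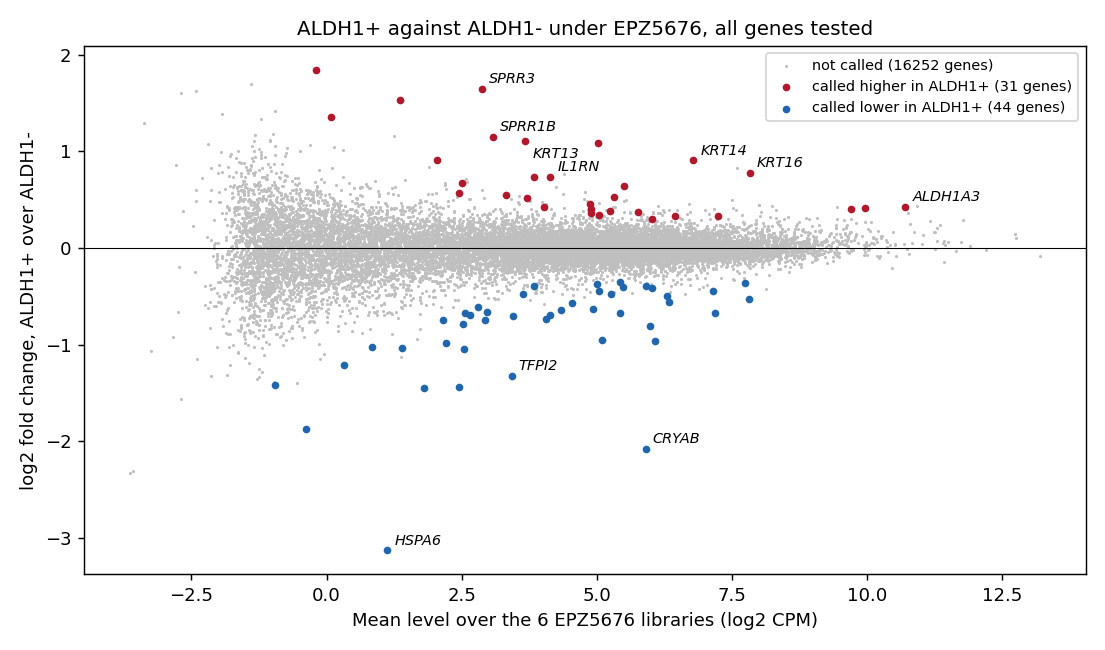
Each point is 1 of the 16327 genes tested, with its mean level over the 6 EPZ5676 libraries on the x axis (log2 CPM) and its log2 fold change, ALDH1+ over ALDH1-, on the y axis. Red marks the 31 genes called higher, blue the 44 called lower and grey the rest; the named genes are the 8 calls that held whichever EPZ5676 library was left out, with HSPA6 and ALDH1A3.

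Across the called genes, the libraries of the 2 populations did not overlap in 54 of 75, beside 9.57% of all genes tested. Those were 26 of the 31 higher genes (4.95% of all genes) and 28 of the 44 lower ones (4.62%). All 3 pairs pointed the same way in 74 of the 75, beside 34.2% of all genes (16.7% higher and 17.5% lower). These counts come from the values that made the calls. The third replicate pair differed least in 28 of the 31 higher and 39 of the 44 lower genes. Median log2 differences of the higher genes were 0.57, 0.61 and 0.41 in pairs 1, 2 and 3, and those of the lower genes -0.70, -0.85 and -0.35. Leaving out an ALDH1+ library gave 10 called genes without replicate 1, 18 without replicate 2 and 386 without replicate 3. Leaving out an ALDH1- library gave 12, 10 and 200. All 75 genes kept their direction in all of these fits, and 8 kept their call in every one: SPRR3, SPRR1B, KRT13, KRT14, KRT16, IL1RN, TFPI2 and CRYAB. With no replicate block, 3 genes were called (0.0184%), SPRR3, SPRR1B and KRT13, and 71 of the 75 had an unadjusted p below 0.05.

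The promoters of 6 called genes are shown because 4 of them belong to neighbouring envelope genes that rose together, and the other 2 to HSPA6, the chaperone with the widest fall, and EGR1, an early growth response gene that fell. Each is 250 bases before to 50 after the RefSeq transcription start, GRCh38.p14, written 5′ to 3′ on the gene's strand. Capitals in the first 4 mark the AP-1 motif TGANTCA and the TATA motif TATAAA. Capitals in HSPA6 mark 2 AP-1 motifs and then a heat shock element, here on the opposite strand, and those in EGR1 mark 2 CArG boxes, the element that serum response factor binds. The marked motifs overlap nowhere in these 6 windows.
SPRR3, chr1:153001499-153001798, + strand: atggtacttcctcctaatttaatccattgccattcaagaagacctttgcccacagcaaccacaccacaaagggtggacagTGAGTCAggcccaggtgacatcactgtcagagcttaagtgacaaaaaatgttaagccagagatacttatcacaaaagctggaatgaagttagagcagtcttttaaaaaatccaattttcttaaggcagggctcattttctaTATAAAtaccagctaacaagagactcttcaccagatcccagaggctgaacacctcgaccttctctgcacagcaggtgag
SPRR1B, chr1:153030953-153031252, + strand: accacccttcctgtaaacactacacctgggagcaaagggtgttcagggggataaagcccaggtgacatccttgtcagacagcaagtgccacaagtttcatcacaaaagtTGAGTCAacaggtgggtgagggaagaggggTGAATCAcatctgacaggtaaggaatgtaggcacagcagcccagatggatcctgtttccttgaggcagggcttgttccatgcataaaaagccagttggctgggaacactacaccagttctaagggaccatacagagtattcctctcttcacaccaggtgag
SPRR2A, chr1:153057463-153057762, - strand: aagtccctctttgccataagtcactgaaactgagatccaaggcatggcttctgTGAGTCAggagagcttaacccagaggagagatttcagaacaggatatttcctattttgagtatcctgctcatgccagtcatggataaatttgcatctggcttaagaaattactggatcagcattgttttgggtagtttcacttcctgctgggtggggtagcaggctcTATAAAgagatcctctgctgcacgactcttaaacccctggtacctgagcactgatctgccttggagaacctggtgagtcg
PRR9, chr1:153217334-153217633, + strand: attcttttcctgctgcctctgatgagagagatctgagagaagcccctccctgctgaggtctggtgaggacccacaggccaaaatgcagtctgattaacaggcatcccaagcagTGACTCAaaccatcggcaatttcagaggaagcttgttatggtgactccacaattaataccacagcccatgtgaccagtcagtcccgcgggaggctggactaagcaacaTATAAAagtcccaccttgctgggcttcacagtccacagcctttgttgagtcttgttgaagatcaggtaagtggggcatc
HSPA6, chr1:161524290-161524589, + strand: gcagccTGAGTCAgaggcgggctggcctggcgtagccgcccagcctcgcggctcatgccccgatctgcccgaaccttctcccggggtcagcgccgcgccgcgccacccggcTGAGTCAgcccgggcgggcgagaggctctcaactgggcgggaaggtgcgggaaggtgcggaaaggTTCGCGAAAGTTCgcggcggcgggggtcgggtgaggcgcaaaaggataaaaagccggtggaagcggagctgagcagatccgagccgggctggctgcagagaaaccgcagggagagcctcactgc
EGR1, chr5:138465229-138465528, + strand: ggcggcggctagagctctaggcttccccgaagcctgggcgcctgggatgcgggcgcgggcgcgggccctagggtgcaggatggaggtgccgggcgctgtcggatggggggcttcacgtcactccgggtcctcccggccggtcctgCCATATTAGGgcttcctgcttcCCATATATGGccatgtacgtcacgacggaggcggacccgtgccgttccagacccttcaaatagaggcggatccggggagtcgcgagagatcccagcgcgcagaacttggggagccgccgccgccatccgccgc

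All 4 envelope promoters shown held an AP-1 motif, whose first base lay at -170 from the transcription start in SPRR3, at -141 and -111 in SPRR1B, at -197 in SPRR2A and at -137 in PRR9. The HSPA6 window, of a gene that fell, held AP-1 motifs too, at -244 and -139. CDSN, KLK5, PADI1 and SULT2B1, other higher genes of the envelope and its processing, had promoters without this motif. TGM1 had no promoter to search. A TATAAA began at -29 in SPRR3 and PRR9 and at -30 in SPRR2A, and these letters were not in the SPRR1B window. Of the 75 called genes, 56 had a promoter in the RefSeq table, 25 of them higher and 31 lower. Searched on both strands, TGANTCA was in 8 of the 25 higher (32%) and 5 of the 31 lower genes (16.1%), beside 4.94% of the promoters of genes tested and 7.76% of all 27305 promoters. TATAAA was in 6 of 25 (24%) and 6 of 31 (19.4%), beside 6.02% of genes tested and 12% of all. The heat shock element was in 0.487% of all promoters and CArG boxes were in 1.29%, and of the 56 promoters HSPA6 alone held the first and EGR1 alone the second. A kappaB site was in 3 of 25 higher (12%) and 6 of 31 lower genes (19.4%), beside 13.1% of genes tested and 10.8% of all. These matches describe the letters and were not tested.

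The small proline-rich proteins are cross-linked precursors of the cornified envelope, and 3 of their genes rose in ALDH1+ cells. SPRR3 stood at 12.3, 16.2 and 10.6 CPM in ALDH1+ libraries and at 3.63, 4.596 and 4.202 CPM in ALDH1- libraries. The lowest ALDH1+ library was above the highest ALDH1- library, and the log2 difference was 1.65 ± 0.13, adjusted p = 2.67e-05. SPRR1B was measured at 14.02, 13.4 and 10.3 CPM in ALDH1+ and 6.24, 5.02 and 5.75 CPM in ALDH1- cells, again without overlap (log2 1.15 ± 0.11, adjusted p = 5.52e-05). SPRR2A was far less abundant in counts, with 50, 180 and 26 counts in ALDH1+ and 12, 18 and 6 in ALDH1- libraries. Its levels of 1.78, 2.26 and 0.876 CPM against 0.489, 0.632 and 0.238 CPM gave the widest rise among the called genes, log2 1.84 ± 0.33, adjusted p = 0.0252. That call was lost when any of the replicate 1 or 2 libraries was left out (adjusted p up to 0.455). SPRR1A, which missed the threshold, was below 1 CPM in all 6 libraries and differed by 1.18 ± 0.29 on the log2 scale, adjusted p = 0.0941.

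Other parts of the envelope and of its processing moved the same way. PRR9, a proline-rich protein encoded in the same cluster, was at 51.2, 60.97 and 33.6 CPM in ALDH1+ and 19.5, 22.95 and 24.5 CPM in ALDH1- libraries (log2 1.09 ± 0.15, adjusted p = 0.00274). Of its 3 pairs, the third stood closest together. CDSN encodes corneodesmosin, which holds cornified cells together, and read 5.99, 5.92 and 1.92 CPM against 1.47, 1.72 and 1.43 CPM. The pairs differed by 1.99, 1.75 and 0.41 on the log2 scale, so that replicate 3 stood closest (overall 1.54 ± 0.22, adjusted p = 0.00348, up to 0.186 with 1 library left out). TGM1, the membrane-bound transglutaminase that cross-links the envelope, had 14.4, 18.5 and 14.2 CPM in ALDH1+ and 8.97, 12.3 and 11.6 CPM in ALDH1- cells (log2 0.52 ± 0.10, adjusted p = 0.0252). KLK5, a protease that cuts corneodesmosin, had 906, 967 and 1003 CPM against 634, 709 and 836 CPM (log2 0.41 ± 0.063, adjusted p = 0.0069). PADI1, which converts arginines of envelope and filament proteins to citrulline, differed by 0.38 ± 0.068, and SULT2B1, which makes cholesterol sulfate in the epidermis, by 0.40 ± 0.075, both on the log2 scale. In both of these the lowest ALDH1+ library lay above the highest ALDH1- library.

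In the order of protein-coding genes along chromosome 1, 0 others lie between SPRR3 and SPRR1B, 1 lies between SPRR1B and SPRR2A, and 5 lie between SPRR2A and PRR9. KRT13, KRT14 and KRT16 are likewise neighbours, with 3 genes between the first 2 and 0 between KRT14 and KRT16. Reads of near-identical copies could have been shared among SPRR2 genes, among KRT14, KRT16 and KRT17, and among KRT6 genes, since the counting rule is not given in the sources used here. Those levels are therefore uncertain as to the copy.

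Keratins of squamous cells formed the next group. KRT13, the filament protein of moist squamous linings, was at 19.3, 21.2 and 15.9 CPM in ALDH1+ and 9.38, 8.95 and 7.85 CPM in ALDH1- libraries (log2 1.10 ± 0.10, adjusted p = 4.24e-05). KRT14, the keratin of basal cells, was at 122, 172 and 164 CPM and 62.7, 76.1 and 108 CPM (log2 0.91 ± 0.089, adjusted p = 7.88e-05). KRT16, a keratin of wounded and hyperproliferative epidermis, was at 265, 344 and 292 CPM and 146, 165 and 219 CPM (log2 0.78 ± 0.090, adjusted p = 0.000516). None of these 3 overlapped between the populations, and each call held when any 1 EPZ5676 library was left out. KRT10, a keratin of cells that have left the basal layer, rose as well, from 34.7, 36.5 and 38.4 CPM to 51.7, 66.5 and 53.3 CPM (log2 0.64 ± 0.10, adjusted p = 0.00528). KRT6A, the partner of KRT16, varied more between replicates than between populations, with 1555, 1297 and 767 CPM in ALDH1+ and 1098, 968 and 622 CPM in ALDH1- cells. Within each pair ALDH1+ was higher, and the log2 difference was 0.41 ± 0.075 (adjusted p = 0.0252).

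KRT1 went the other way. This usual partner of KRT10 was at 0.606, 0.9401 and 0.843 CPM in ALDH1+ and 1.55, 2.46 and 1.55 CPM in ALDH1- libraries, a log2 difference of -1.21 ± 0.23 with adjusted p = 0.0291 (up to 0.722 with 1 library left out). KRT5, the partner of KRT14, missed the threshold at 2539, 2565 and 2540 CPM against 2059, 2114 and 2108 CPM, although its libraries did not overlap (log2 0.28 ± 0.060, adjusted p = 0.0526). KRT6B and KRT17 were not called either, with log2 differences of 0.44 ± 0.13 and 0.43 ± 0.13.

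Over a list of keratinocyte differentiation genes, 24 were tested, of which 8 were called higher and 1, KRT1, lower. Of all genes tested, 0.19% were called higher and 0.269% lower, and these shares stand beside every other list too. The 8 were SPRR3, SPRR1B, SPRR2A, PRR9, KRT13, KRT10, TGM1 and KLK5. The median log2 difference of the 24 was 0.39, beside -0.002 over all genes tested, and 22 of the 24 values were above 0. Other known genes of the upper epidermis in the list were not called: FLG (filaggrin) differed by 0.16 ± 0.10 and IVL (involucrin) by 0.20 ± 0.12 on the log2 scale. The list was chosen with earlier results of these data known, so its count describes these genes and is not independent evidence of a direction. Basal genes had 3 of 19 called higher (KRT14, KRT16 and KRT6A) and a median of -0.004, while their mean was above 0 in each pair (0.106, 0.106 and 0.139).

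**Figure D2:**
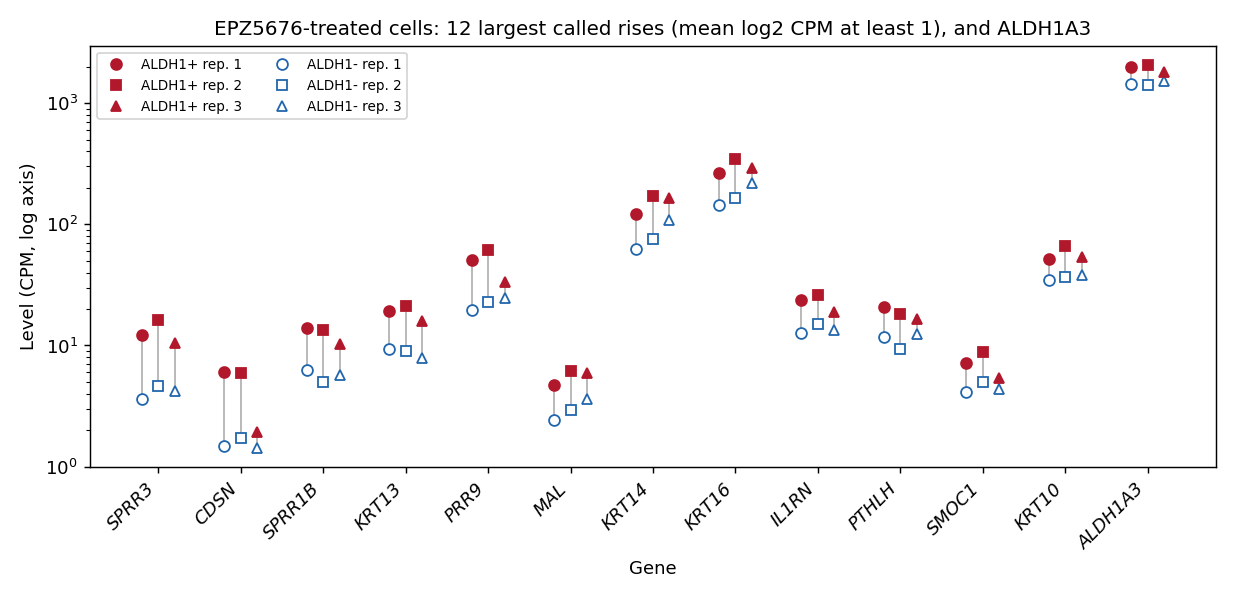
Levels (CPM, log axis) of the 12 largest called rises among genes whose mean log2 CPM reached 1, and of ALDH1A3, in the 6 EPZ5676 libraries. Filled red symbols are ALDH1+ and open blue symbols ALDH1- libraries, the shape gives the replicate and a grey line joins each pair; the red symbol is above the blue one in every pair, and the third pair (triangles) is often the closest.

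ALDH1A3 was the only called gene of the 18 aldehyde dehydrogenases tested (5 of the ALDH1 class and 13 others). This retinal dehydrogenase read 1984, 2058 and 1818 CPM in ALDH1+ libraries and 1424, 1412 and 1512 CPM in ALDH1- libraries. The groups did not overlap, and the third pair was the closest. The log2 difference was 0.43 ± 0.073 (adjusted p = 0.0158), and the adjusted p ranged up to 0.304 with 1 library left out. ALDH1A1, the class member most often named with this sort, had 12.8, 9.41 and 13.2 CPM against 13.9, 10.5 and 11.5 CPM, which overlapped (log2 -0.04 ± 0.10, adjusted p = 0.925). ALDH1A2 had 7.42, 9.46 and 8.59 CPM against 8.36, 8.46 and 6.699 CPM (log2 0.12 ± 0.12, adjusted p = 0.726). ALDH3A1 had 4.39, 3.96 and 5.56 CPM against 4.45, 3.44 and 3.69 CPM (log2 0.26 ± 0.16, adjusted p = 0.545). These 3 genes did not pass the test. DOT1L itself read 64.02, 63.8 and 62.01 CPM in ALDH1+ and 69.8, 72.98 and 57.7 CPM in ALDH1- cells, which overlapped (log2 -0.07 ± 0.072, adjusted p = 0.726). The compound acts on the enzyme and not on its mRNA, so this level does not check the treatment label.

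Genes of retinoid handling other than ALDH1A3 were mostly not called. DHRS3, which reduces retinal back to retinol and so works against retinal oxidation, was at 3.89, 3.999 and 5.39 CPM in ALDH1+ and 5.71, 8.53 and 8.404 CPM in ALDH1- libraries and fell (log2 -0.79 ± 0.15, adjusted p = 0.0293, up to 0.51 with 1 library left out). It was the 1 gene called among 19 tested in the list of retinoic acid handling and targets, whose median was -0.023.

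The remaining higher genes were secreted factors, membrane proteins and enzymes. IL1RN, the natural antagonist of the interleukin-1 receptor, was at 23.6, 25.9 and 18.9 CPM in ALDH1+ and 12.7, 14.95 and 13.3 CPM in ALDH1- libraries (log2 0.74 ± 0.094, adjusted p = 0.00162). PTHLH, the parathyroid hormone-like hormone that squamous cells and breast tumours secrete, was at 20.7, 18.1 and 16.6 CPM and 11.8, 9.403 and 12.4 CPM (log2 0.73 ± 0.11, adjusted p = 0.00509). The populations did not overlap for either gene. FGFBP1, which releases fibroblast growth factors from the matrix, rose from 36.6, 27.6 and 36.5 CPM to 49, 48.5 and 45.97 CPM (log2 0.52 ± 0.084, adjusted p = 0.00924). SMOC1, a matrix protein that binds calcium, differed by 0.67 ± 0.14 and ARTN, a ligand of the GDNF family, by 0.38 ± 0.071. MAL and MALL, related proteolipids of epithelial membranes, both rose. MAL read 4.71, 6.104 and 5.898 CPM against 2.41, 2.95 and 3.61 CPM (log2 0.91 ± 0.12, adjusted p = 0.00224), and MALL differed by 0.45 ± 0.090. IL20RA, a receptor chain for interleukin-20 cytokines, differed by 0.34 ± 0.070 and GNG4, a G protein subunit, by 0.42 ± 0.087.

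BCL11B, a zinc finger transcription factor of skin and mammary epithelium, differed more between replicates than between populations. It read 7.88, 13.8 and 16.3 CPM in ALDH1+ and 5.302, 9.19 and 11.4 CPM in ALDH1- cells, higher within each pair (log2 0.55 ± 0.11, adjusted p = 0.0393). CYP4F3, a cytochrome that inactivates leukotriene B4, had the same layout (log2 0.56 ± 0.11). TRIM54, known as a muscle ring finger protein, was low, at 1.28, 1.69 and 1.89 CPM against 0.734, 0.456 and 0.714 CPM (log2 1.36 ± 0.26, adjusted p = 0.0301). NDRG1, a hypoxia-responsive gene, was the 1 call among 22 hypoxia-response genes tested (log2 0.36 ± 0.072, adjusted p = 0.036). DPYD, which breaks down pyrimidines, differed by 0.30 ± 0.062, the narrowest rise called, and SFT2D2 and C1orf116 by 0.33 ± 0.061 and 0.33 ± 0.066.

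Among the genes that fell, the chaperones HSPA6 and CRYAB had the widest differences. HSPA6, a member of the HSP70 family known for its strict induction by heat and proteotoxic stress, read 0.8203, 0.752 and 0.607 CPM in ALDH1+ and 8.36, 8.39 and 3.17 CPM in ALDH1- libraries. The 3 ALDH1- libraries all lay above the 3 ALDH1+ libraries, and the log2 difference was -3.13 ± 0.42 (adjusted p = 0.00224, 0.0506 without ALDH1+ replicate 1). CRYAB, the small heat shock protein alpha-B crystallin, read 37.7, 29.6 and 22.7 CPM and 150.5, 152 and 79.7 CPM, again apart (log2 -2.08 ± 0.18, adjusted p = 3.69e-05). CLU, the secreted chaperone clusterin, read 132, 114 and 105 CPM and 214, 198 and 149.5 CPM (log2 -0.67 ± 0.11, adjusted p = 0.0116). Of 19 heat shock chaperones tested, HSPA6 and CRYAB were called, and the median was 0.062. Of the 19 log2 values, 14 were above 0 and 5 below. At an unadjusted p below 0.05, 7 were higher and 4 lower, beside 6.28% and 6.37% of all genes tested. The mean over the list, which includes HSPA6 and CRYAB, had the other sign from the median, at -0.275, -0.125 and -0.183 in pairs 1, 2 and 3. HSPA1A differed by 0.03 ± 0.11, DNAJB1 by 0.02 ± 0.053 and HSP90AA1 by 0.21 ± 0.071, none of them called. Reads of HSPA6 may be shared with its close copy HSPA7.

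Immediate early genes answer growth factor signals within minutes. EGR1 read 57.8, 48.2 and 42.5 CPM in ALDH1+ and 137, 120.3 and 49.1 CPM in ALDH1- libraries. The third ALDH1- library lay below the first ALDH1+ library, so the groups overlapped, while ALDH1+ was lower in each pair (log2 -0.96 ± 0.16, adjusted p = 0.0116, up to 0.208 with 1 library left out). EGR4 read 4.42, 1.66 and 0.977 CPM and 8.402, 4.702 and 0.991 CPM, with nearly equal levels in the third pair (log2 -1.04 ± 0.21, adjusted p = 0.0393, up to 0.722). These were the 2 calls among 30 immediate early genes tested, beside 0.269% of all genes called lower. The median of the 30 was -0.16, beside -0.002 over all genes, and 25 of the 30 log2 values were below 0. JUN missed the threshold at 98.2, 78.7 and 77.1 CPM against 153, 122 and 87.5 CPM (log2 -0.48 ± 0.10, adjusted p = 0.0524), and FOS differed by -0.25 ± 0.087. Both genes also differed between replicates of a population.

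Among 25 NF-kB and inflammatory genes tested, 2 were called, both lower, beside 0.269% of all genes called lower. The median of the 25 was -0.25, beside -0.002 over all genes, with 23 values below 0. ICAM1, the adhesion molecule that leukocytes bind, read 64.7, 46.1 and 38.2 CPM in ALDH1+ and 111, 106 and 50.03 CPM in ALDH1- libraries (log2 -0.81 ± 0.12, adjusted p = 0.00474). BIRC3, an apoptosis inhibitor and ubiquitin ligase, read 76.8, 64.3 and 60.5 CPM and 123, 106 and 71.2 CPM (log2 -0.56 ± 0.10, adjusted p = 0.0274). In both, replicates 1 and 2 of ALDH1- stood well above the rest and the third pair was the closest. CX3CL1, the membrane-bound chemokine fractalkine, fell as well (log2 -0.48 ± 0.093), as did VNN1, a pantetheinase (log2 -0.66 ± 0.11). IL6, which missed the threshold, differed by -0.57 ± 0.14 (adjusted p = 0.0897). APOBEC3B, a cytidine deaminase with close copies in its cluster, read 25.3, 22.1 and 26.5 CPM against 40.2, 38.2 and 35.5 CPM (log2 -0.64 ± 0.10, adjusted p = 0.00924). ERAP1, which trims peptides for MHC class I, differed by -0.35 ± 0.070 and was the 1 call among 20 genes of class I presentation.

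Genes of mesenchymal cells and of TGF-beta and YAP signalling were lower in part. TGFB2, a TGF-beta ligand, read 204, 185 and 179 CPM in ALDH1+ and 262, 265 and 205 CPM in ALDH1- libraries (log2 -0.36 ± 0.075, adjusted p = 0.0461). TGFBR2, the type II receptor, read 59.2, 52.9 and 58.3 CPM and 80.5, 79.2 and 66.4 CPM (log2 -0.41 ± 0.073, adjusted p = 0.0231). ANKRD1, a target of YAP, read 31.3, 26.3 and 18.1 CPM and 62.3, 57.8 and 28.98 CPM (log2 -0.95 ± 0.13, adjusted p = 0.00228, 0.0533 without ALDH1+ replicate 1). With AXL, these were the 4 calls among 27 TGF-beta and YAP genes tested, whose median was -0.085. Of all genes tested, 0.269% were called lower.

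AXL, a receptor tyrosine kinase of mesenchymal cells, read 12.3, 9.53 and 10.01 CPM against 15.8, 14.8 and 13.2 CPM (log2 -0.47 ± 0.087, adjusted p = 0.0268). VIM, the filament protein vimentin, read 214, 199.5 and 156 CPM against 272, 308 and 237 CPM (log2 -0.53 ± 0.11, adjusted p = 0.0467, up to 0.682 with 1 library left out). Neither overlapped between populations, and they were the 2 calls among 10 mesenchymal genes tested, beside 0.269% of all genes called lower. Of the 10 log2 values 7 were below 0 and 3 above, with a median of -0.183. At an unadjusted p below 0.05, 4 were lower and 2 higher. The mean of the list was -0.098, -0.341 and 0.027 in pairs 1, 2 and 3. In DMSO, 3 of the 10 were called lower and 1 higher, beside 5.02% and 3.45% of all genes tested there. FN1 (fibronectin) was not called and differed by 0.17 ± 0.090. DAB2, an adaptor in TGF-beta receptor traffic, differed by -0.61 ± 0.11, IGFBP5, an insulin-like growth factor binding protein, by -0.68 ± 0.14, and A2M, the protease inhibitor alpha-2-macroglobulin, by -0.57 ± 0.10. SPDEF, an ETS factor of luminal and secretory cells, was the 1 call among 16 luminal genes and differed by -0.40 ± 0.081.

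TFPI2, a secreted inhibitor of serine proteases, read 6.99, 8.04 and 5.53 CPM in ALDH1+ and 20.8, 21.2 and 10.8 CPM in ALDH1- libraries (log2 -1.32 ± 0.15, adjusted p = 0.000455). Its groups did not overlap, and the call held when any 1 library was left out. CGA, the shared alpha chain of glycoprotein hormones, read 6.06, 3.85 and 1.65 CPM and 17.1, 11.8 and 3.09 CPM (log2 -1.44 ± 0.20, adjusted p = 0.00274). Replicates spread widely in both populations.

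Further falls were spread over enzymes, membrane proteins and RNAs. DHRS2, a short-chain dehydrogenase, read 3.07, 1.66 and 1.99 CPM against 7.63, 7.02 and 2.97 CPM (log2 -1.45 ± 0.22, adjusted p = 0.0069). GLYATL2, which conjugates glycine to fatty acyl groups, differed by -1.04 ± 0.22 and NNMT, which methylates nicotinamide, by -0.70 ± 0.14. FBXO32, a ubiquitin ligase subunit known from muscle atrophy, differed by -0.69 ± 0.14, and GPNMB, a glycoprotein of melanosomes and macrophages, by -0.74 ± 0.14. The teneurin TENM1, the axon guidance gene NAV2, the adhesion receptor ADGRG6 and the corepressor TLE3 differed by -1.03 ± 0.19, -0.64 ± 0.12, -0.49 ± 0.092 and -0.45 ± 0.082. PLCD3, PLEKHG4, NRK, LONRF3, PDZK1IP1 and C9orf152 lay between -0.75 and -0.38 on the log2 scale.

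The noncoding calls were all lower. UCA1, a long noncoding RNA first described in bladder cancer, read 54.5, 50.8 and 52.04 CPM against 70.4, 78.5 and 58.3 CPM (log2 -0.39 ± 0.074, adjusted p = 0.0274). LINC01291 was below 1 CPM in all 6 libraries. ROR1-AS1, antisense to ROR1, read 0.357, 0.351 and 0.506 CPM and 1.999, 1.895 and 0.476 CPM. It was the 1 called gene whose pairs did not all point the same way, and without the strand setting its reads cannot be told apart from those of ROR1. SNORD3B-1, a small nucleolar RNA with close copies, read 3.495, 2.06 and 4.82 CPM and 6.44, 5.86 and 6.94 CPM (log2 -0.98 ± 0.20).

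**Figure D3:**
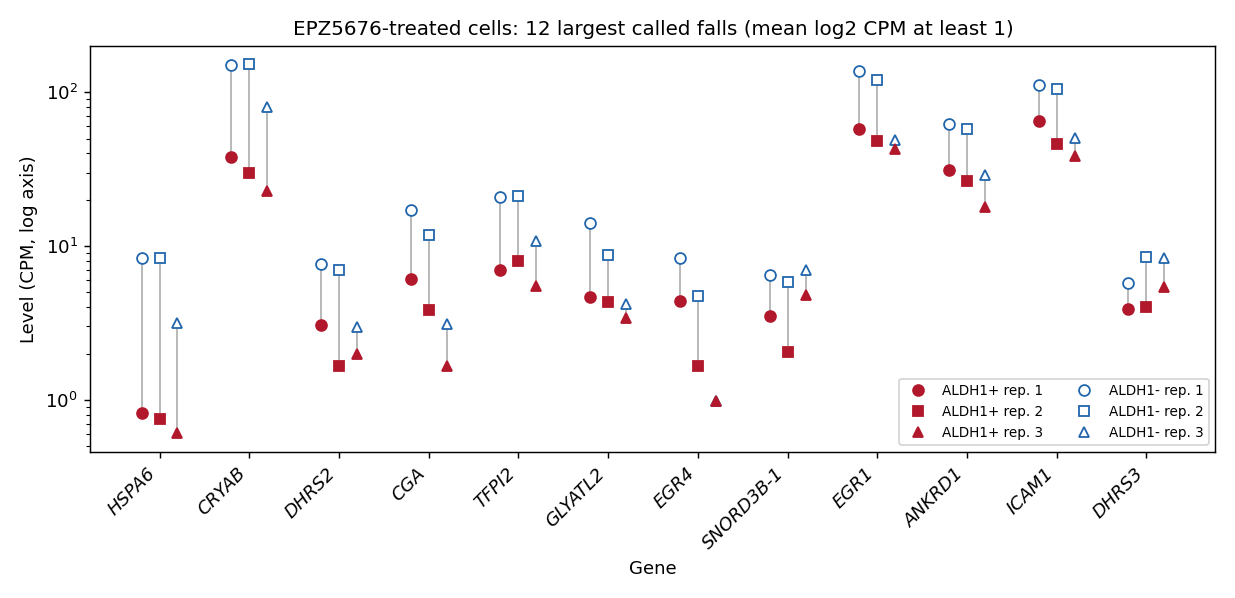
Levels (CPM, log axis) of the 12 largest called falls among genes whose mean log2 CPM reached 1, in the 6 EPZ5676 libraries. Filled red symbols are ALDH1+ and open blue symbols ALDH1- libraries, the shape gives the replicate and a grey line joins each pair. The blue symbol is above the red one in every pair. For EGR4 the third pair nearly meets, and for EGR1, ICAM1 and GLYATL2 the third pair is the closest.

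Cell cycle genes held no call but a shared sign. All 30 G2 and mitosis genes tested had a log2 difference below 0, with a median of -0.27. edgeR called 0 of the 30, while 24 had an unadjusted p below 0.05, beside 6.37% of all genes tested in that direction. DESeq2 called 8 of them lower and limma-voom 0, beside 93 and 37 genes called lower among all 16327. CENPF, a kinetochore protein, read 237, 203 and 304 CPM in ALDH1+ and 342, 333 and 305 CPM in ALDH1- libraries (log2 -0.42 ± 0.10, adjusted p = 0.0941). Replicates 1 and 2 were apart and replicate 3 was level. CDC20, the activator of the anaphase-promoting complex, read 188, 167 and 222 CPM and 239, 237 and 236 CPM (log2 -0.31 ± 0.077, adjusted p = 0.0941). Averaged over the list, the pairs differed by -0.39, -0.38 and -0.043. Without ALDH1+ replicate 3, 12 of the 30 genes were called lower, beside 183 of all 16605 genes tested in that fit. Without ALDH1- replicate 3, 11 were, beside 132 of all 16629. Genes of DNA replication lay on the other side: 26 of 27 log2 values were above 0 with a median of 0.12. edgeR called 0, and 8 had an unadjusted p below 0.05 (6.28% of all genes in that direction). DESeq2 called 1 higher and limma-voom 0, beside 74 and 24 genes called higher among all 16327. Because RNA was pooled over each sorted population, fewer cells with a transcript and less transcript per cell cannot be told apart.

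Other lists were described by the same counts. At an unadjusted p below 0.05, 6.28% of all genes tested were higher and 6.37% lower. Of 40 lists, 27 held 0 called genes under edgeR. Breast stem and progenitor markers had 0 of 15 called, with 1 higher and 1 lower at an unadjusted p below 0.05 and 0 calls by DESeq2 or limma-voom. CD44, a surface marker of that list, read 2882, 2339 and 2632 CPM in ALDH1+ and 3186, 2846 and 2649 CPM in ALDH1- cells (log2 -0.14 ± 0.065, adjusted p = 0.379). Interferon-stimulated genes had 0 of 37 called, 10 lower and 1 higher at an unadjusted p below 0.05, a median of -0.14 and 0 calls by DESeq2 or limma-voom. Cytosolic ribosomal protein genes had 0 of 42 called, 12 higher at an unadjusted p below 0.05 and a median of 0.13. Pair means for the ribosomal genes were 0.091, 0.38 and -0.052. DESeq2 and limma-voom called 0 of them.

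**Figure D4:**
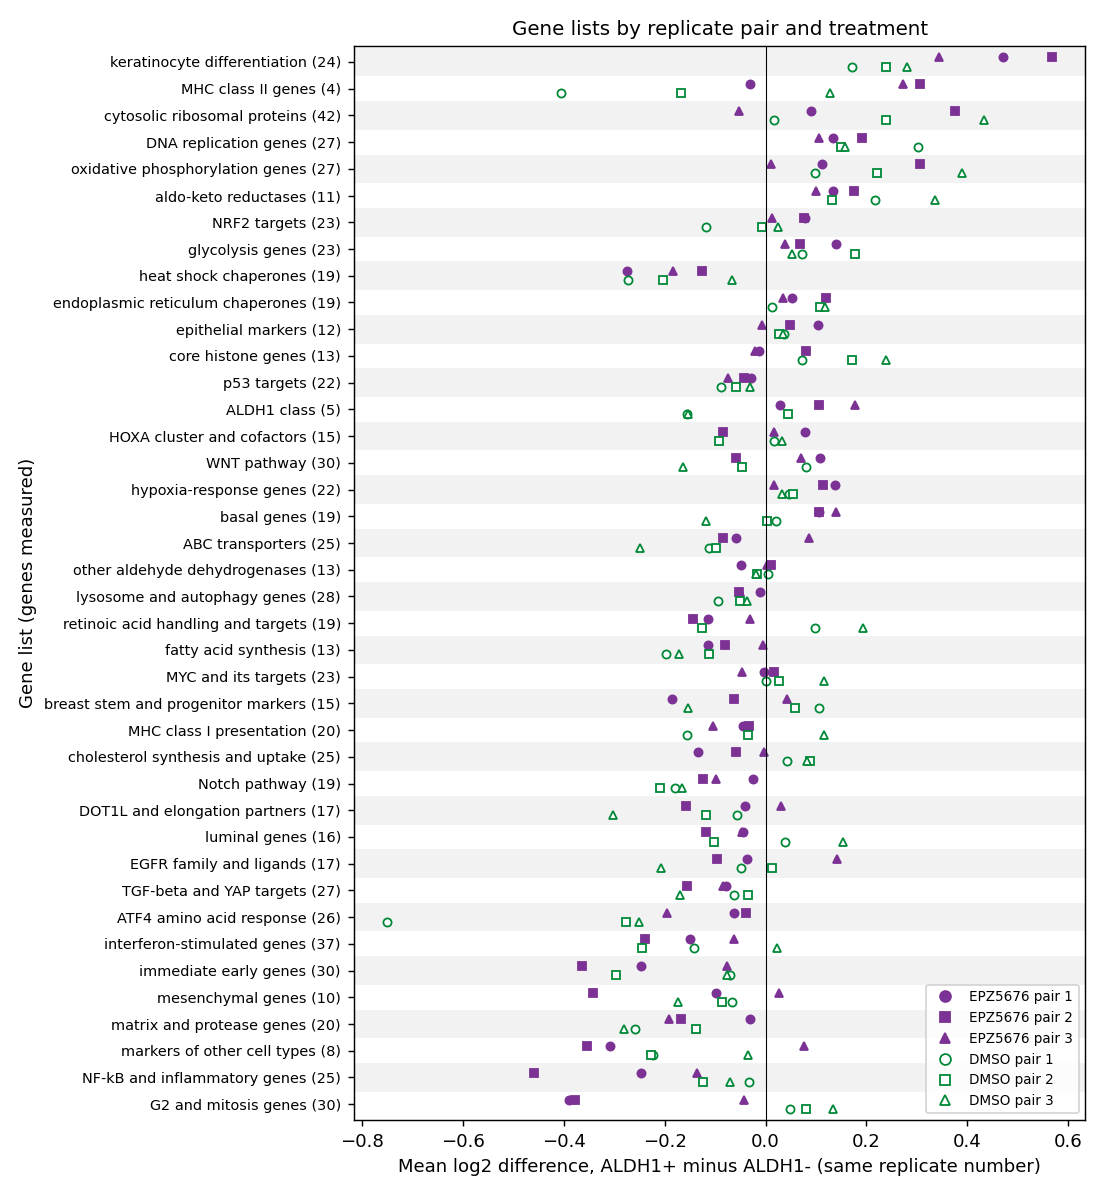
Each row is 1 gene list with the number of its genes measured, ordered by median log2 fold change under EPZ5676. Points give the mean log2 difference over the list, ALDH1+ minus ALDH1-, for each replicate pair (shape), filled purple under EPZ5676 and open green in DMSO; G2 and mitosis genes are in the bottom row, at -0.39, -0.38 and -0.043 under EPZ5676 and 0.049, 0.081 and 0.13 in DMSO.

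The same sort in DMSO gives the solvent background, and its values for the genes called under EPZ5676 were set beside them. In DMSO, 1384 genes were called between ALDH1+ and ALDH1- (8.48%), 564 higher (3.45%) and 820 lower (5.02%), and 51 differed at least 2-fold. Of the 75 genes called under EPZ5676, 32 were called in DMSO in the same direction, 42.7% of the 75 and 2.31% of the 1384, 11 of them higher and 21 lower, and 0 in the opposite direction. The log2 values had the same sign in 65 of 75, and 61 had the larger absolute value under EPZ5676, the comparison in which they were chosen. The test of the difference between both treatments called 0 genes with edgeR. At an unadjusted p below 0.05 that test had 1463 of all 16327 genes, 28 of them among the 75, and limma-voom called 0. The EPZ5676 comparison that chose the 75 is part of this test. Counts among the 75 therefore give no independent evidence of a difference between treatments. The lowest adjusted p that edgeR gave for a called gene was 0.297. DESeq2 called 25 genes, 2 of them among the 75, SPDEF (adjusted p = 0.013) and C1orf116 (adjusted p = 0.0486). Without ALDH1- replicate 3, edgeR called EGR1 (adjusted p = 0.0135) and GLYATL2 (adjusted p = 0.0131), and with no filter on low counts it called 180 genes, 15 of them among the 75.

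Several of the called genes differed in the same direction in DMSO. Of the 24 keratinocyte differentiation genes, 9 were called higher (3.45% of all genes) and 1 lower (5.02%) in DMSO, with a median of 0.307. Under EPZ5676 it was 8 and 1, with a median of 0.387. SPRR1B, KRT10 and KLK5 were called higher in both treatments. Their log2 differences in DMSO were 0.56 ± 0.15, 0.60 ± 0.093 and 0.33 ± 0.063. CRYAB read 43.3, 29.4 and 30.1 CPM in ALDH1+ and 189, 79.1 and 68.99 CPM in ALDH1- cells of the DMSO series, a log2 difference of -1.60 ± 0.18 beside -2.08 ± 0.18 under EPZ5676. HSPA6 differed by -4.28 ± 0.48 in DMSO, beside -3.13 ± 0.42 under EPZ5676, and its difference between the treatments was 1.15 ± 0.74. In DMSO KRT14 differed by 0.80 ± 0.089, KRT13 by 1.01 ± 0.18 and KRT16 by 0.64 ± 0.090, beside 0.91 ± 0.089, 1.10 ± 0.10 and 0.78 ± 0.090 under EPZ5676. These 3 keratins were called higher in both treatments as well. VIM differed by -0.53 ± 0.11 in DMSO, beside -0.53 ± 0.11 under EPZ5676. ALDH1A3 read 1596, 1864 and 1467 CPM and 1372, 1361 and 1380 CPM in DMSO (log2 0.26 ± 0.073, adjusted p = 0.0417), and its difference between the treatments was 0.17 ± 0.10.

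Other genes had a difference near 0 in DMSO. EGR1 read 206, 192 and 137 CPM in ALDH1+ and 188, 232 and 115 CPM in ALDH1- cells there (log2 0.03 ± 0.15), and the treatments differed by -0.995 ± 0.22 with adjusted p = 0.297. IL1RN read 6.55, 8.48 and 7.75 CPM and 7.26, 7.62 and 6.53 CPM in DMSO (log2 0.10 ± 0.11), with a difference of 0.63 ± 0.14. CDSN read 0.764, 0.598 and 0.319 CPM and 0.586, 0.884 and 0.499 CPM in DMSO (log2 -0.23 ± 0.37), with a difference of 1.77 ± 0.43. The adjusted p of the difference was 0.297 for both. SPDEF differed by 0.14 ± 0.077 in DMSO and C9orf152 by 0.01 ± 0.10, against falls of -0.40 ± 0.081 and -0.75 ± 0.14 under EPZ5676.

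Levels themselves were lower in DMSO for several envelope genes. PRR9 read 0.582, 1.47 and 0.602 CPM in ALDH1+ and 0.4399, 0.986 and 0.653 CPM in ALDH1- cells of the DMSO series, beside 33.6 CPM in its lowest ALDH1+ library under EPZ5676. SPRR3 read 0.218, 0.478 and 0.425 CPM and 0.0733, 0.3401 and 0.2304 CPM in DMSO, and its log2 difference there of 0.86 ± 0.42 did not pass the test (adjusted p = 0.198). SPRR2A had 0.154 CPM at most in any DMSO library, so no fold is given there, and the difference between treatments was not called (adjusted p = 0.582).

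**Figure D5:**
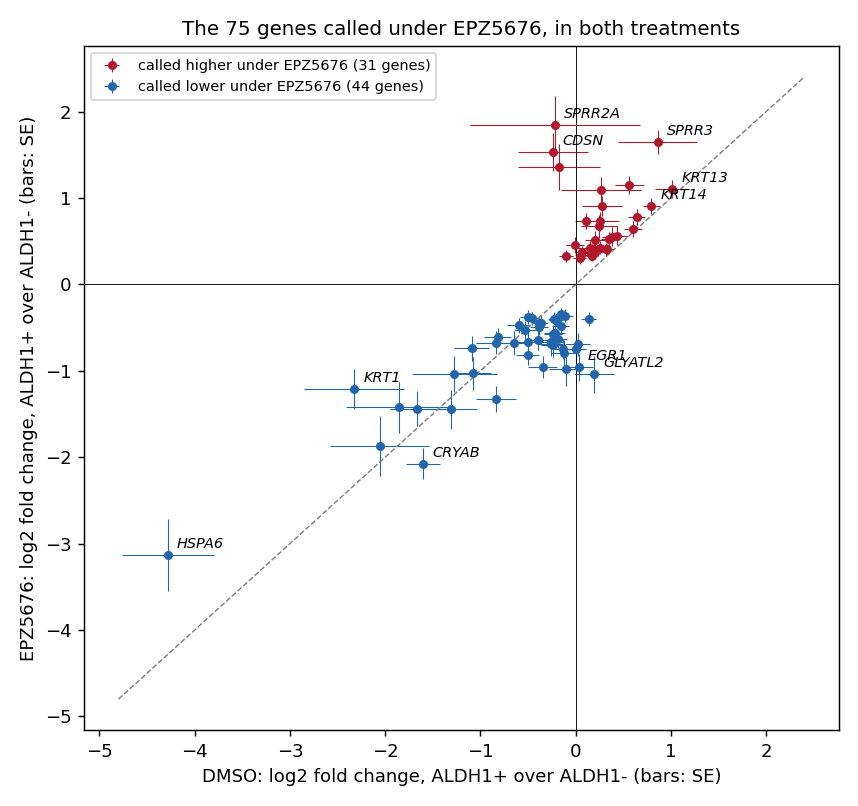
Each point is 1 of the 75 genes called under EPZ5676, with the log2 fold change of ALDH1+ over ALDH1- in DMSO on the x axis and under EPZ5676 on the y axis; bars are standard errors and the dashed line marks equal values. Red genes were called higher and blue genes lower under EPZ5676; KRT14 lies near the line, EGR1 and CDSN near 0 on the DMSO axis or beyond it.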

How the data were processed

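The authors deposited 1 table of raw read counts per gene for 12 libraries, 57783 genes under Ensembl identifiers, with no normalization. Per the labels' protocols, total RNA of sorted cells went into a directional library kit; per the submitters' processing notes, Trim Galore, STAR and build hg19 were used, with no versions. Neither how reads were counted, with which strand setting, nor the annotation is given in the sources used here. Symbols came from a GENCODE-based table, and promoter sequences from a RefSeq table of GRCh38.p14.

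Genes passing filterByExpr by group (16327) were scaled by TMM and fitted over all 12 libraries in 1 edgeR 4.0.16 quasi-likelihood model (R 4.3.3), with a term per group and the replicate number as a block. Benjamini-Hochberg adjustment covered the whole table, with 0.05 as the threshold for a call. SEs were derived from the log2 fold change and its F statistic, and log2 CPM used a prior count of 2. The fit was also run on counts simulated from this same model, which cannot show whether the model suits these libraries.

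Whether replicate numbers pair the libraries was checked over 12354 genes: deviations from the group mean correlated between 0.17 and 0.65 in all 18 same-numbered pairs, and between -0.66 and 0.22 in the others. The numbers were therefore taken to pair the libraries.

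The naming rule covered DOT1L, ALDH1A1, ALDH1A2, ALDH1A3, ALDH3A1, the 12 called genes with the widest rise and the 12 with the widest fall that reached a mean log2 CPM of 1 and had 1 sign in all 3 pairs, up to 4 called genes of each of 40 lists, and uncalled members of a list where it is described. The other called genes were named after their values were seen. Values of a few genes are not reported here. The comparison, the lists and the genes were chosen with earlier results of these data known. Alternatives were RLE or no scaling, no filter, at least 1 CPM in 3 samples, DESeq2 1.42.0, limma-voom (limma 3.58.1), other blocks, the 6 EPZ5676 libraries alone, and leaving out each of them in turn.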

Additional observations from a re-analysis of the deposited data

Results flagged for a closer look

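Averaged over 30 G2 and mitosis genes, ALDH1+ minus ALDH1- was below 0 in all 3 EPZ5676 pairs (mean -0.270 on the log2 scale) and above 0 in all 3 DMSO pairs (mean 0.088). The difference between the treatments was not tested for the list. For single genes it was tested, and edgeR called 0 of all 16327 genes. The third EPZ5676 pair was close to 0, at -0.043, beside -0.39 and -0.38 in the others.

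Averaged over 25 genes of cholesterol synthesis and uptake, the EPZ5676 pairs likewise lay below 0 (mean -0.065) and the DMSO pairs above 0 (mean 0.071). This difference was not tested for the list either. The third EPZ5676 pair was at -0.003. Both lists were found by searching all 40 lists for opposite signs in the treatments. How many lists would have such signs by chance was not tested.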

How the results depend on the processing

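All 75 called genes kept their direction under every setting that tested them. Without the replicate block, 3 genes were called under EPZ5676 (3 higher, 0 lower) and 0 in DMSO. With only the 6 EPZ5676 libraries it was 186 (77 higher, 109 lower) with the block and 5 (3 and 2) without. No filter on low counts gave 632 (370 and 262), 2116 in DMSO and 180 for the difference between treatments, over 33418 genes. DESeq2 gave 167 (74 and 93), and 25 for the difference (2 among the 75). A block within each treatment gave 1 for the difference. With 1 EPZ5676 library left out, the counts ranged from 10 to 386 called (6 to 203 higher, 3 to 183 lower), 0 to 2 for the difference and 856 to 1937 in DMSO. RLE scaling, no scaling, at least 1 CPM in 3 samples and limma-voom gave 61 to 93 called genes. Of the 75 calls, 52 held under all 8 settings with a block and all libraries. ALDH1A1, which was not called, ranged from -0.157 to 0.074 on the log2 scale with 1 library left out, and its sign turned without ALDH1+ replicate 2 (0.04) and without ALDH1- replicate 1 (0.074). Fewer libraries left fewer degrees of freedom; why counts rose without the replicate 3 libraries was not tested. SPRR1A was below 1 CPM in all 6 EPZ5676 libraries and SPRR2A had 6 to 18 counts in ALDH1- libraries; depth as a limit for them was not tested.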
